A study of Mus musculus with 22 samples.

Results

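Hepatoblastoma, a liver cancer driven here by YAP1, turned into hepatocyte-like cells after YAP1 was switched off. The regions described here were open chromatin of mouse liver, listed at days 33 and 64 of this course but not at day 14. They were the intervals of the liver list, at least 50 bp wide and on chromosomes 1 to 19 and X, that overlapped an interval at day 33 and one at day 64 without YAP1 by at least 1 bp and no interval at day 14. Of 353408 such liver intervals, 8861 met the rule, and 319024 were present in all 3 lists without YAP1. Presence in these 4 lists chose the regions, so it is a description and no finding, and the RNA of the genes nearest to them was measured in other samples. The regions are called late for this pattern alone. The list of the tumor with YAP1 on was not part of the rule, so a late region may also have been open before day 14.

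Open chromatin came from Omni-ATAC, where a transposase inserts adapters into accessible DNA. There was 1 library each of tumor with YAP1 on (YAP1on), of days 14, 33 and 64 without YAP1, and of liver given only as WT. RNA of whole tissue was sequenced in 4 groups. The YAP1on tumors (n = 4) and the day 6 tumors (n = 4) carried the transgene Tg(CAG-rtTA3)4288Slowe/J on a B6N.FVB(Cg) background, whose CAG promoter drives the transactivator rtTA3, and were hepatoblastomas of mice on doxycycline or off it. The hbHep group was liver of 3 mice of genotype FAH Delta Exon 5 at days 121, 114 and 117, with 2 technical libraries each, and the FAH liver group was liver of 3 mice of the same genotype kept on NTBC, a drug that blocks tyrosine breakdown before the step of the missing enzyme Fah. All tumors of a group carry the same mouse code, so they are samples of 1 mouse, and mouse and treatment cannot be told apart. No source used here gives the share of host cells left in the hbHep livers, or the ages of the mice.

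Some facts of the samples touch every result below. The labels give no sex. The gene body of Ddx3y, on the Y chromosome, held 0 intervals in the YAP1on list, 1 at day 14, 28 at day 33, 18 at day 64 and 13 in liver, while Xist, which is transcribed from the inactive X, held 51, 78, 5, 3 and 3. Eif2s3y, also on the Y, held 0, 0, 8, 4 and 3. Of 2 further Y genes, Uty held 13, 49, 49, 32 and 31 and Kdm5d 3, 18, 10, 7 and 7. Ddx3y RNA was 4.82 to 29.4 with YAP1 on, 11.7 to 18.6 at day 6, 1691 to 2561 in hbHep, with 2264 to 3456 in FAH liver. In the same order Eif2s3y was 0.768 to 2.80, 1.26 to 6.6, 392 to 599 and 707 to 944. Uty was 41.7 to 89.8, 70.4 to 80.6, 992 to 1115 and 869 to 1056. Kdm5d was 124 to 172, 143 to 150, 269 to 660 and 683 to 768. RNA of Uty and Kdm5d was thus not absent from the tumors. The day 14 library, which had to lack a region, thus differed at Ddx3y, Eif2s3y and Xist from those that had to hold it. At Uty and Kdm5d it had no fewer intervals than they did. Sex, strain and time without YAP1 cannot be told apart in either assay. The targeted gene followed the labels, with Yap1 RNA at 5263 to 10750 in YAP1on tumors and 1095 to 1248 in day 6 tumors. Summed RNA of 21 macrophage markers was 51730 to 65190 with YAP1 on, 31660 to 38910 at day 6, 18580 to 46600 in hbHep, with 7293 to 12470 in FAH liver; none of the 21 was at 0 in every sample of a group. That of 23 cholangiocyte and progenitor markers was 49940 to 63080, 17670 to 27920, 12950 to 14730 and 5246 to 7346 in the same order. The part of these cells in the results was not tested, and fewer cells of a type cannot be told from less RNA per cell.

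Hepatocytes acquire their mature program in steps. Factors such as HNF4A, C/EBP and FOXA proteins open enhancers, many of them far from gene starts, and adult liver adds genes of drug, bile acid and amino acid metabolism, some confined to 1 zone of the lobule. Part of the adult program depends on sex through the pulsatile or steady secretion of growth hormone, and includes the major urinary proteins (Mup), many cytochromes P450 and some sulfotransferases.

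Promoter sequence shows how different the late regions at gene starts can be. The lines below give, 5′ to 3′ on the gene's strand, the stretches of late regions upstream of 5 genes' starts, taken from RefSeq promoter windows on GRCm38.p6, with CpG pairs in capitals. Cyp2f2, Cyp2c39, Gm2427 and Susd4 are genes whose RNA is described below, and Lrat, the retinol esterifying enzyme of stellate cells, had a late region on its start.
Lrat, chr3:82903975-82904033, minus strand: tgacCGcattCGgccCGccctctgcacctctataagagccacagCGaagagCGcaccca
Susd4, chr1:182763966-182764043, plus strand: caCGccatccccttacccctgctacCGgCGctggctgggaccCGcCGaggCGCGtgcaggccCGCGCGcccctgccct
Cyp2f2, chr7:27119808-27119954, plus strand: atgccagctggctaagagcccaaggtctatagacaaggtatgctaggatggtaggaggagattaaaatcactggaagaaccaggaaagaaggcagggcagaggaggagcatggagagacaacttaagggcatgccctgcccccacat
Gm2427, chr1:85496235-85496304, plus strand: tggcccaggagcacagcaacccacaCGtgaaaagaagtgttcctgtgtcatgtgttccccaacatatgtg
Cyp2c39, chr19:39347096-39347200, plus strand: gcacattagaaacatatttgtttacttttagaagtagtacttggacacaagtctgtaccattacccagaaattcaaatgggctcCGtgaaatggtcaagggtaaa

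The Susd4 stretch held 10 CpG pairs in 78 bases and 78.2% G and C. The Cyp2c39 stretch held 1 in 105 bases and 37.1% G and C, and that of Cyp2f2 held 0 in 147 bases. The day 14 list had its nearest interval 38469 bp from the Susd4 region and 26442 bp from the Lrat region, but 39 bp from the Gm2427 region and 127 bp from the Cyp2c39 region. So the same rule took in promoters with no day 14 interval over a wide stretch and others beside one.

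Across the genome, 226 of 32585 RefSeq promoter windows (250 bases before to 50 after a start) overlapped a late region, and 74 of these overlapped none of the liver intervals shared with days 14, 33 and 64. These 74 had a median of 8.5 CpG pairs and 52.7% G and C, near the 7 pairs and 53.0% of all windows, while the 14268 windows with a shared interval had 20 pairs and 61.0%. Of 17 motifs searched on both strands, the ETS motif CCGGAAG stood in 4.05% of the 74 windows, in 8.92% of all windows and in 17.1% of those with a shared interval. The TEAD motif ACATTCC, of the factors that YAP1 works through, stood in 6.76%, 3.87% and 2.84%, and the CTCF motif AGGNGGC in 35.1%, 29.4% and 40.6%. The HNF4A motif CAAAGTCCA was in 0 of the 74 and in 0.479% of all windows. These shares rest on 74 windows, so 4.05% is 3 windows. The other motifs were C/EBP TTGCNNAA, FOXA TGTTTAC, HNF6 ATTGATT, HNF1 GTTAATNAT, AP-1 TGANTCA, PU.1 GAGGAAGT, STAT TTCNNNGAA, glucocorticoid receptor ACANNNTGT, TCF/LEF CTTTGAT, E-box CACGTG, D-box TTATGNAA, the GATA family with AGATAAG and the IRF family with GAAANNGAA, whose shares in the 74 windows lay between 0 and 12.2%. The letters of a motif do not show that its factor binds.

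Most late regions were narrow and lay far from gene starts. Their median width was 69 bp (quartiles 58 and 88, range 50 to 334), against 82 bp for liver intervals shared with days 14, 33 and 64 and 62 bp for the 4152 found in none of these lists. Of the 8641 with a protein-coding start in the annotation used, 508 (5.88%) had their midpoint within 1 kb of the nearest start, 1610 (18.6%) at 1 to 10 kb, 2704 (31.3%) at 10 to 50 kb and 3819 (44.2%) farther away. Among shared intervals 21.3% lay within 1 kb and 27.5% over 50 kb, and among those in none of the lists 4.97% and 43.1%. The median distance was 39.5 kb for late regions and 14.6 kb for shared ones. A gene body held 51.6% of late regions and 65.0% of shared ones. In distance to starts the late regions were close to the intervals found in none of the lists.

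**Figure D1:**
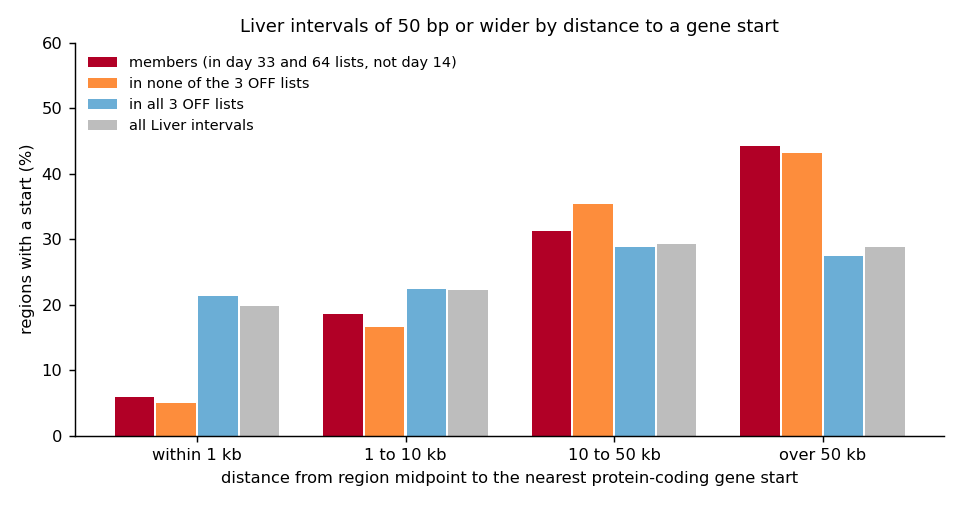
Share of liver intervals at least 50 bp wide (y axis, % of those with an annotated start) by distance of the midpoint to the nearest protein-coding gene start (x axis), for late regions (red, "members" in the plots), intervals in none of the 3 lists without YAP1 (orange), intervals in all 3 (blue) and all liver intervals (grey). Late regions were within 1 kb of a start in 5.88% of cases and shared intervals in 21.3%.

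Only 1088 late regions (12.3%) overlapped an interval of the YAP1on list, against 59.9% of shared intervals and 12.5% of those in none of the lists; the YAP1on intervals were of another kind (median 21 bp), so these shares compare sets of regions within that list and not the list with the others. How far a region lay from day 14 chromatin varied widely. The nearest day 14 interval was 0 to 10 bp away for 1033 regions (11.7%), 11 to 50 bp for 1531 (17.3%), 51 to 200 bp for 1913 (21.6%) and over 10 kb for 1498 (16.9%), with a median of 192 bp. Many regions thus lay right beside an interval of the day 14 list, and a smaller group far from any. At the edges of the rule, 234 regions were exactly 50 bp wide, 2809 intervals of 40 to 49 bp passed the overlaps, and 1876 were left out by a day 14 overlap of 1 to 10 bp. The median region was covered over 79.4% of its width at day 33 and 83.8% at day 64. Some overlapped each other, so the 8861 formed 8245 separate stretches.

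The widest region lay on the start of Susd4, a complement regulator and a gene of the sex-biased list, at chr1:182763873-182764206 (334 bp, mm10). Next came regions in the bodies of G6pc, the glucose 6-phosphatase of gluconeogenesis (301 bp), and Moxd1, a monooxygenase-like gene (284 bp). Regions near Atg7 (261 bp), in L3mbtl4 (259 bp), Tedc2 (256 bp) and Shq1 (239 bp), and 3 of Mup7 (252, 248 and 246 bp) completed the 10 widest. The Moxd1 region was 37837 bp from the nearest day 14 interval, and that of Tedc2 52 bp.

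Late regions were then grouped by position. When regions no more than 20000 bp apart were joined, a grouping chosen after the data were seen, 68 stretches held 10 or more, with 1787 regions (20.2%) in all. Other liver intervals were not grouped in this way, so no crowding beyond theirs is shown. Of these, 16 stretches held a Mup gene (381 regions), 23 a gene of a list of sex-biased and growth hormone genes (608 regions), 9 had no day 14 interval and 9 held no gene. Chromosome 4, where the Mup cluster lies, had 871 late regions (9.8%, against 6.8% of all liver intervals). Per 1000 intervals of each list, the 68 stretches held 2.86 in YAP1on, 4.56 at day 14, 10.8 at day 33, 11.5 at day 64 and 13.3 in liver. The rule asks for days 33 and 64 and liver without day 14, so it favors a lower value at day 14 than in those lists.

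The stretches differed in what came before. Across 12.2 kb of Plin4 and Plin5, which encode coat proteins of lipid droplets, all 58 liver intervals were late regions, and the lists held 112 intervals with YAP1 on, 0 at day 14, 96 at day 33, 96 at day 64 and 79 in liver. As all 58 were late, none could overlap a day 14 interval by the rule, which favors the 0. The YAP1on tumor had intervals too, but of another kind, so its count is not compared with the others. In 47.7 kb of Sult2a8, a sulfotransferase of bile acids and steroids, 57 of 75 were late, and the lists held 2, 13, 243, 141 and 104. Along 66.9 kb of Nudt7, a hydrolase of coenzyme A in peroxisomes, 78 of 159 were late, with 32, 89, 241, 236 and 225 intervals. Mup10 (5.5 kb) held 0, 0, 41, 45 and 30 intervals and Moxd1 (31.8 kb) 0, 0, 32, 28 and 45, so neither had any in the YAP1on or day 14 list. A stretch of 142 kb between Hrh1 and Atg7 with no gene body held 149 late regions, and 2 stretches of the multicopy Speer4 genes on chromosome 5 held 149 and 112. In these, day 14 had 390, 597 and 389 intervals. Reads from near-identical copies make single positions uncertain in the Speer4 stretches. The same holds for the stretches with Mup genes, that of Mup10 among them.

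**Figure D2:**
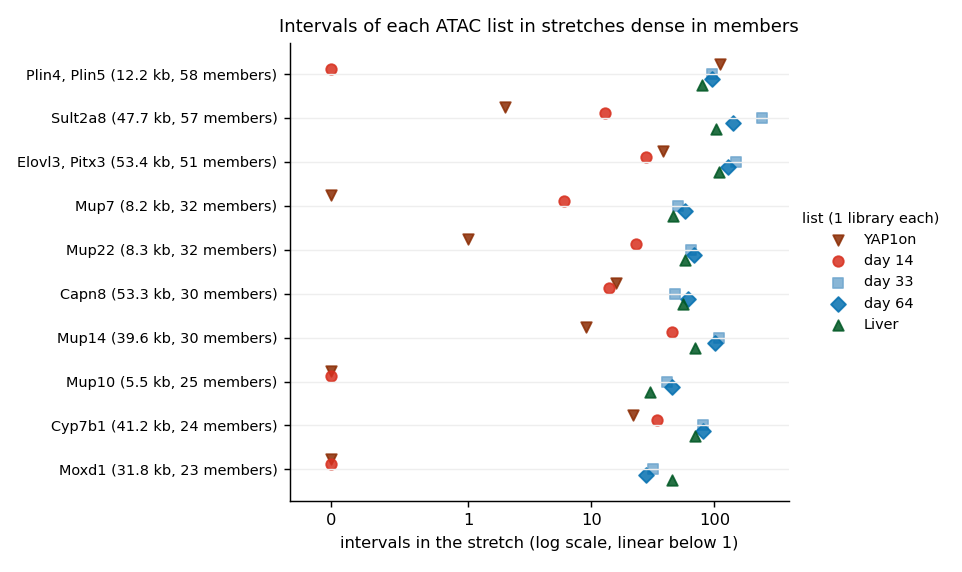
Number of intervals (x axis, log scale above 1 and linear below) of each of the 5 ATAC lists in the 10 stretches with most late regions among those where at least 50% of liver intervals were late (y axis, with length and number of late regions). The day 14 symbol lies left of those of days 33 and 64 and liver in every stretch. The rule and the choice of stretches favor this order. The YAP1on symbol lies with the later lists at Plin4 and Plin5 alone, but its intervals are of another kind (median 21 bp).

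RNA of the nearest genes was compared between the 4 groups. Each region was given the protein-coding gene with the nearest start, which made 3082 genes; 2992 were in the RNA table, 2546 passed the filter on low values and 446 did not. Values are the deposited signal in scaled reads per base after rescaling between samples, called abundance here, and tests were limma on log2(abundance + 1) over all 17953 genes with Benjamini-Hochberg adjustment. In day 6 tumors against YAP1on tumors, 505 nearest genes (19.8%) were higher and 262 (10.3%) lower, where all genes tested gave 12.8% and 10.8%. In hbHep against day 6 tumors, the step that spans days 14 to 64, 686 (26.9%) were higher and 508 (20%) lower, against 24.1% and 21.7% of all genes, so this share was near the background. Against YAP1on tumors 877 (34.4%) were higher in hbHep and 585 (23.0%) lower, with 28.8% and 26.3% for all genes. Against FAH liver 547 (21.5%) were higher and 565 (22.2%) lower, with 19.9% and 17.1% for all genes. The median log2 differences were 0.07, 0.03, 0.11 and −0.04 in that order, and 0.02, −0.02, −0.02 and −0.01 over all genes. These comparisons share samples, so their counts are not independent of each other.

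Genes with 10 or more late regions had shares away from the background in day 6 tumors against YAP1on tumors. The hbHep shares against YAP1on tumors and FAH liver were away from it too. Without the 68 stretches all of these shares came nearer to it, those of day 6 included. Of 113 nearest genes with at least 10 regions, 89 passed the filter. In day 6 tumors 36 of the 89 (40.4%) were higher than in YAP1on tumors and 4 (4.49%) lower, where all genes tested gave 12.8% and 10.8%. In hbHep 27 (30.3%) were higher than in day 6 tumors and 13 (14.6%) lower, and 48 (53.9%) were higher than in YAP1on tumors. Compared with FAH liver, 12 (13.5%) were higher in hbHep and 40 (44.9%) lower, with 19.9% and 17.1% for all genes. Without genes of the sex-biased list and Mup genes, 25 of 73 (34.2%) were higher at day 6 and 25 (34.2%) lower in hbHep than in FAH liver. Without the regions in the 68 dense stretches, 32 tested genes had 10 or more regions, and these shares were 28.1% and 18.8%. In that set hbHep was higher than day 6 tumors in 18.8% and lower in 21.9%, higher than YAP1on tumors in 34.4%, and higher than FAH liver in 21.9%, so the balance against day 6 and against FAH liver turned. Genes with 1 region stood at 17.1% higher at day 6 and 18.4% lower against FAH liver, those with 2 to 4 at 21.9% and 25.1%, and those with 5 to 9 at 18.3% and 22.5%, so the shares did not climb steadily with the number.

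**Figure D3:**
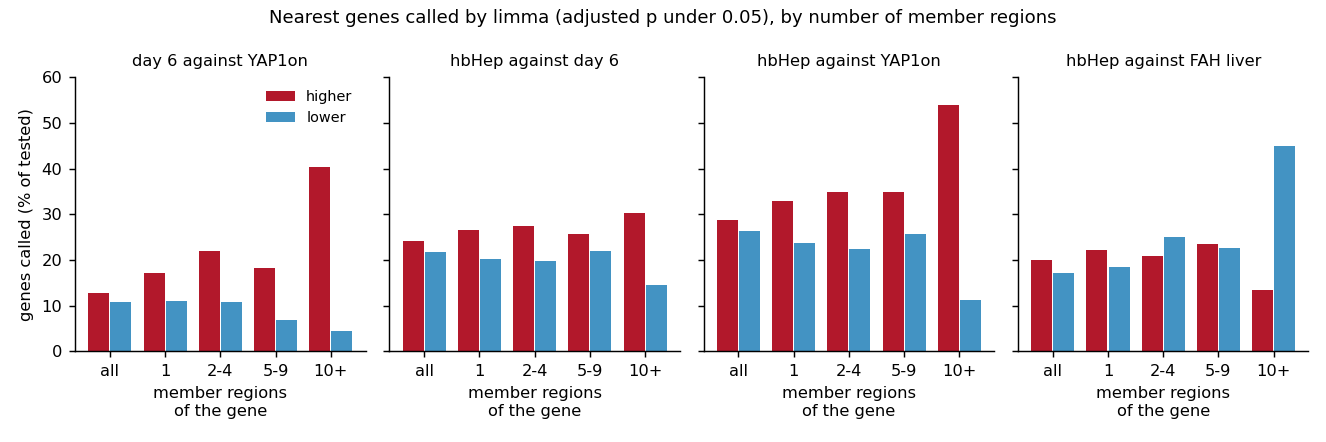
Percent of tested genes called higher (red) or lower (blue) by limma at an adjusted p under 0.05 (y axis) for all genes and for nearest genes grouped by number of late regions (x axis), in 4 comparisons. Genes with 10 or more regions (n = 89) were higher at day 6 in 40.4% and lower in hbHep than in FAH liver in 44.9%.

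Calls by distance of the nearest region were not in a simple order. Among 302 genes with a region within 1 kb, 20.2% were higher in day 6 tumors than in YAP1on tumors and 25.8% lower in hbHep than in FAH liver. Among 561 genes whose nearest late region was 1 to 10 kb away, these shares were 26.6% and 31.2%, and among 901 at 10 to 50 kb 21.1% and 20.1%. Among 782 genes with regions only beyond 50 kb they were 13.4% and 16.8%, close to the background. The differences between distance classes were not tested. With 2 or more regions within 10 kb (255 genes) they were 32.9% and 42.4%. As a comparison, genes nearest to shared intervals gave 14.5% and 19.4%, and those nearest to intervals found in none of the 3 lists 16.1% and 19.3%.

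Genes inside the dense stretches were counted by their bodies. Of 77 genes whose bodies lay in such stretches, 64 were tested. In day 6 tumors 30 (46.9%) were higher than in YAP1on tumors (12.8% of all genes tested), with a median log2 difference of 0.76. In hbHep 44 (68.8%) were lower than in FAH liver (17.1% of all genes), with a median of −1.36. Compared with day 6 tumors, 25 (39.1%) were higher in hbHep and 8 (12.5%) lower, against 24.1% and 21.7% of all genes. Of the 64, 19 were Mup genes or pseudogenes, all lower in hbHep than in FAH liver. Leaving out the sex-biased list and Mup genes left 40. Of these, 14 (35.0%) were higher at day 6 than with YAP1 on and 21 (52.5%) lower in hbHep than in FAH liver. In hbHep 14 of the 40 were higher than in day 6 tumors and 4 lower. Genes of these stretches are named from here on for their number of regions or as examples picked after their values were seen.

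Sult2a8 RNA was 33.7, 15.2, 23.8 and 16.3 in YAP1on tumors and 924, 1090, 461 and 996 in day 6 tumors. It was 827, 231 and 981 in hbHep and 23730, 16010 and 14900 in FAH liver. Day 6 tumors lay above every YAP1on tumor, hbHep overlapped day 6, and FAH liver lay above all other samples. The log2 difference was 5.22 (SE 0.40, adjusted p = 2.75e-07, limma) for day 6 against YAP1on, −0.53 (SE 0.43, adjusted p = 0.333, limma) for hbHep against day 6 and −4.96 (SE 0.46, adjusted p = 1.19e-06, limma) for hbHep against FAH liver. RNA of Sult2a8 was thus called higher at day 6, in other samples than those in which its stretch held 13 intervals at day 14 and 243 at day 33.

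Nudt7 RNA was 751, 593, 696 and 411 in YAP1on tumors, 1975, 1832, 1426 and 2110 in day 6 tumors, 9682, 1577 and 6521 in hbHep and 20280, 16960 and 13100 in FAH liver. The groups formed a rising series except for hbHep mouse 2, which lay among the day 6 tumors. Against YAP1on the day 6 log2 difference was 1.60 (SE 0.40, adjusted p = 0.00792, limma). The rise from day 6 to hbHep (log2 1.35, SE 0.43, adjusted p = 0.0182, limma) was lost without hbHep mouse 1 or 3 and when only these groups were fitted (adjusted p up to 0.121 over these settings).

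Mup proteins carry pheromones in urine and are more abundant in male mice. Mup7 was at 0 in all 4 YAP1on tumors, 53.5, 14.6, 21.8 and 11.4 in day 6 tumors, 118, 86.5 and 379 in hbHep and 131700, 112100 and 27760 in FAH liver. Mup17 was at 0 in 3 YAP1on tumors and 0.993 in the other, 35.0, 22.9, 9.57 and 13.2 in day 6 tumors, 2506, 239 and 6673 in hbHep and 363900, 251200 and 210600 in FAH liver. All 4 groups were apart in both genes, which were picked after their values were seen. Of 19 Mup genes and pseudogenes tested in dense stretches, 13 were higher at day 6 than with YAP1 on, 6 were higher and 4 lower in hbHep than at day 6, and all 19 were lower in hbHep than in FAH liver (median log2 −6.77). The 6 and 4 are 31.6% and 21.1%, near the 24.1% and 21.7% of all genes tested. The 13 are 68.4%, against 12.8% of all genes, and 17.1% of all genes were lower in hbHep than in FAH liver. The log2 difference of hbHep from FAH liver was −8.87 (SE 0.62, adjusted p = 6.13e-08, limma) for Mup7 and −7.40 (SE 0.82, adjusted p = 6.46e-06, limma) for Mup17. Mup11, with 72 regions the third by number, was 0.956 to 7.70 with YAP1 on, 87.0 to 232 at day 6, 8.15 to 119 in hbHep, with 5158 to 9380 in FAH liver. kallisto shares reads among these near-identical genes by estimation, so single members are uncertain.

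Other genes of dense stretches had far less RNA in hbHep than in FAH liver. Cyp7b1, an oxysterol hydroxylase of bile acid synthesis, was 151, 148, 185 and 143 in YAP1on tumors, 578, 645, 531 and 621 in day 6 tumors, 2090, 1001 and 2825 in hbHep and 33990, 29700 and 16680 in FAH liver. Its 4 groups did not overlap, and hbHep was above day 6 (log2 1.61, SE 0.28, adjusted p = 0.000312, limma). Elovl3, a fatty acid elongase, was 0 to 0.591 with YAP1 on, 5.56 to 8.46 at day 6, 13.4 to 56.2 in hbHep, with 430.8 to 1144 in FAH liver. For Aspg, an asparaginase, the ranges were 28.3 to 76.6, 73.0 to 149, 148 to 395 and 2819 to 3624. Capn8, a calpain protease, had 0.564 to 2.02, 2.98 to 5.16, 4.72 to 10.3 and 153 to 233. Mcm10, a DNA replication factor, stood at 81.8 to 113 with YAP1 on, 86.3 to 157 at day 6, 163.5 to 634 in hbHep, with 2644 to 4044 in FAH liver. hbHep was lower than FAH liver in all 5 (log2 −3.82, −4.33, −3.60, −4.53 and −3.10 for Cyp7b1, Elovl3, Aspg, Capn8 and Mcm10; adjusted p at most 1.48e-05, limma).

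RNA in other stretches did not have this order. Plin4 was 722, 650, 691 and 798 in YAP1on tumors, 468, 417, 442 and 495 in day 6 tumors, 291, 869 and 343 in hbHep and 197, 190 and 254 in FAH liver. The YAP1on tumors lay above all samples but hbHep mouse 2. Plin4 overlapped between hbHep and day 6 (log2 −0.04, SE 0.26, adjusted p = 0.917, limma) and was higher in hbHep than in FAH liver (log2 1.06, SE 0.28, adjusted p = 0.00858, limma; adjusted p 0.0521 when only these groups were fitted). Plin5 stayed between 975 and 1518 in all 14 samples. Moxd1, with 23 regions in its stretch, was at most 3.99 in any sample and missed the filter. Atg7, a ligase that autophagy needs, had the most regions (109, 6.47 to 118 kb from its start, 57 of them nearer to the body of Hrh1). Its RNA was 281 to 409 with YAP1 on, 346 to 412 at day 6, 815 to 1172 in hbHep, with 757 to 863 in FAH liver, and rose by log2 1.38 (SE 0.15, adjusted p = 3.19e-06, limma) from day 6 to hbHep.

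Oat, ornithine aminotransferase of pericentral hepatocytes, went past liver. It was 6205, 3471, 7195 and 7290 in YAP1on tumors, 50210, 62830, 39890 and 51700 in day 6 tumors, 186600, 136500 and 110100 in hbHep and 6707, 5189 and 3963 in FAH liver. No group overlapped its neighbor except YAP1on tumors and FAH liver. hbHep exceeded FAH liver by log2 4.77 (SE 0.30, adjusted p = 1.90e-08, limma).

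**Figure D4:**
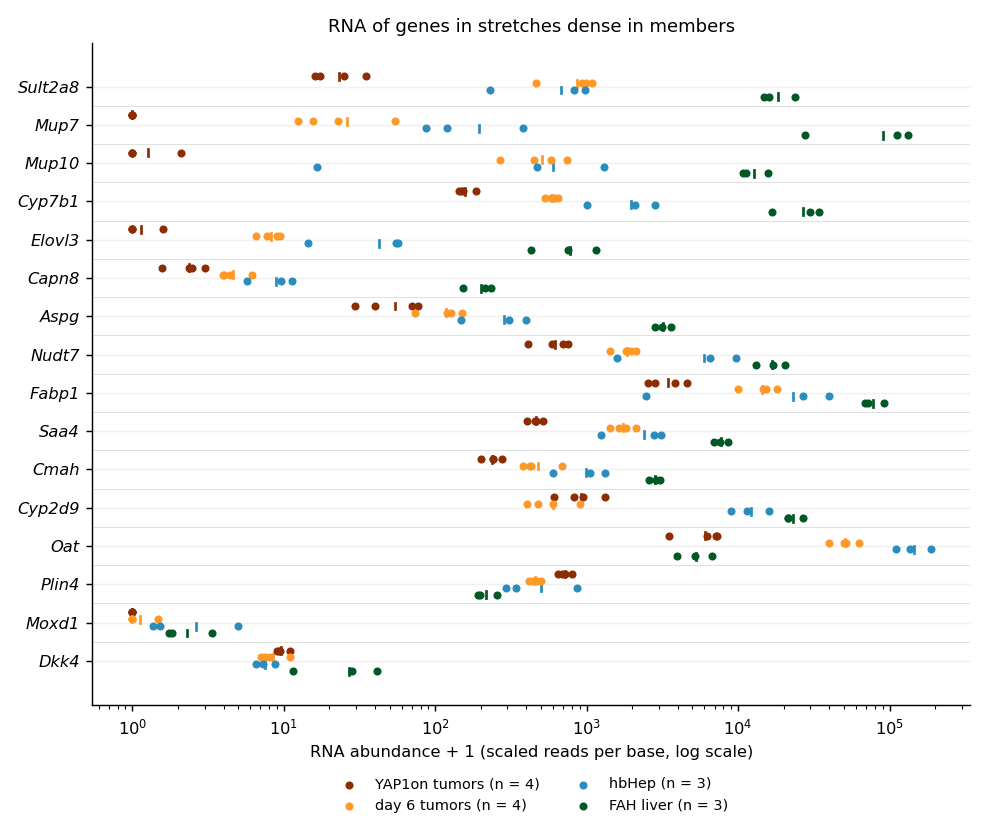
RNA abundance + 1 (x axis, scaled reads per base, log scale) of 16 genes in stretches dense in late regions (y axis); each point is a sample, vertical ticks are group means, and colors mark the 4 groups. In Sult2a8, Mup7, Cyp7b1, Elovl3, Capn8 and Aspg the FAH liver samples lie above all others, while in Oat the hbHep samples do.

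Among nearest genes with a late region within 10 kb of the start, 389 were called in hbHep against day 6 tumors with no overlap of the samples, 223 higher and 166 lower. These were 25.8% and 19.2% of the 863 such genes tested, near the 22.6% and 19.8% of all genes tested that met the same rule. The 12 largest rises included genes of liver metabolism. Cyp2c39, a P450 of the fatty acid and drug oxidizing Cyp2c family, was 73.0, 59.4, 82.8 and 61.2 in YAP1on tumors, 259, 302, 198 and 279 in day 6 tumors, 20410, 12940 and 20660 in hbHep and 4257, 2499 and 4594 in FAH liver. All 4 groups were apart and hbHep was highest, by log2 6.10 (SE 0.22, adjusted p = 2.62e-11, limma) over day 6 and 2.27 (SE 0.24, adjusted p = 3.79e-06, limma) over FAH liver. Its late region at the start, printed above, was 128 bp wide.

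Susd4 was 4.07, 2.55, 4.24 and 4.29 in YAP1on tumors, 3.82, 2.75, 2.82 and 4.34 in day 6 tumors, 177, 70.7 and 76.5 in hbHep and 74.9, 79.7 and 45.2 in FAH liver. Both tumor groups lay under both liver groups, and the latter overlapped. From day 6 to hbHep the log2 rise was 4.51 (SE 0.35, adjusted p = 1.12e-07, limma), while hbHep against FAH liver gave 0.60 (SE 0.37, adjusted p = 0.22, limma). Trhde, an ectoenzyme that cleaves thyrotropin-releasing hormone, was 0 to 6.27 over all tumors, 215, 63.1 and 191 in hbHep and 1124, 940 and 984 in FAH liver. It rose by log2 6.4 (SE 0.52, adjusted p = 2.17e-07, limma) from day 6 and stayed under FAH liver by log2 2.87 (SE 0.56, adjusted p = 0.000976, limma). For both genes the tumors and the liver groups divided as Ddx3y did.

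Treh, a trehalase, was 6.73 to 19 in all tumors, 422 to 501 in hbHep, with 41.8 to 56.1 in FAH liver, so hbHep stood apart from every other group (log2 3.22 over FAH liver, SE 0.30, adjusted p = 1.48e-06, limma). Fitm1, an endoplasmic reticulum protein of lipid droplet formation, was 2.58 to 18.3 in all tumors, 206 to 445 in hbHep, with 611 to 779 in FAH liver. Igsf23, a membrane protein of the immunoglobulin superfamily, was 10.3 to 22.7 in tumors, 997 to 1849 in hbHep, with 768 to 984 in FAH liver. The other large rises were Nat8f5, Nat8f6, Cfap20dc, Gm2427 and Gm42517; Gm42517 was 154 to 255 in hbHep and at most 2.88 in FAH liver, whereas for Nat8f5, Nat8f6, Cfap20dc and Gm2427 the FAH samples ranged from 22.7 to 325 over the 4 genes, and the tumors from 0 to 15.6.

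The 8 largest falls followed. Gm1966 was 362 to 536 with YAP1 on, 491 to 788 at day 6, 0.645 to 1.89 in hbHep, with 0 to 2.88 in FAH liver. Srd5a2, a steroid 5-alpha-reductase, was 67.7 to 117 in tumors and 0 to 2.88 in both liver groups. Trim12a, Trim5 and Zfp982 also had both liver groups together (at most 23.9, 15.4 and 3.74) and under the tumors (at least 179, 47.3 and 26.0). For these 5 genes the samples divided by the 2 genotypes of the labels. The same held for Cyp2c39, Mup17, Susd4, Trhde, Treh, Fitm1, Igsf23, Nat8f5, Nat8f6, Cfap20dc and Gm2427 among the rises. It also held for Serpina1e and Apln among the falls. For all of these genes strain cannot be told apart from the change of state. The Serpina1 falls are alpha-1-antitrypsin genes, which differ in copy number between strains. Serpina1e was 5111 to 7102 with YAP1 on, 4505 to 15870 at day 6, 15.9 to 81.2 in hbHep, with 399 to 426 in FAH liver, and Serpina1d 8906 to 18070, 42920 to 63780, 317 to 1920 and 11000 to 16410. Apln, a peptide of endothelial growth, was 18.8 to 85.1, 64.6 to 173, 4.33 to 9.49 and 0 to 1.51. A late region near a start was thus beside genes that fell as well as genes that rose.

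**Figure D5:**
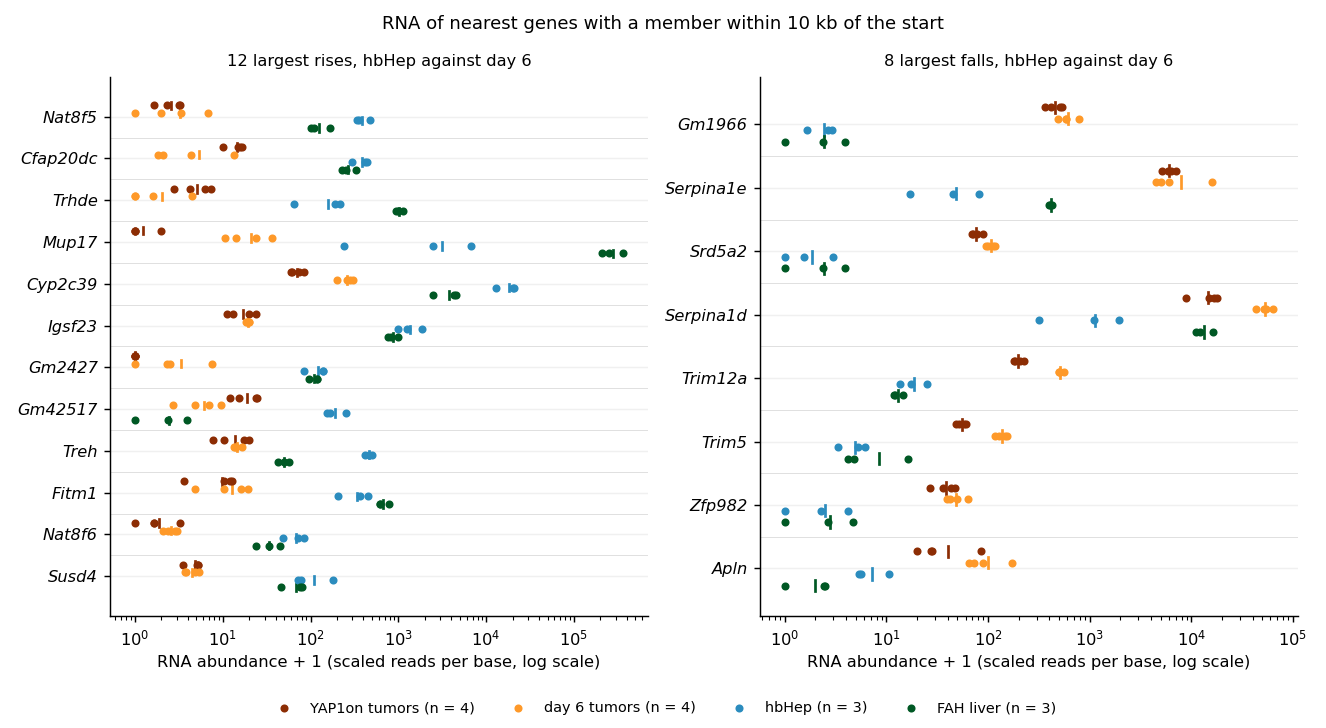
RNA abundance + 1 (x axis, scaled reads per base, log scale) of the nearest genes with the 12 largest rises (left) and 8 largest falls (right) from day 6 tumors to hbHep, 1 point per sample with group means as vertical ticks. For Gm1966, Srd5a2, Trim12a, Trim5 and Zfp982 both liver groups lie together, far left of both tumor groups.

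Gene lists gave the nearest genes by role, with counts by limma at an adjusted p of 0.05. The background for each count is the share of all genes tested (12.8% higher and 10.8% lower at day 6, 24.1% and 21.7% in hbHep against day 6, 19.9% and 17.1% against FAH liver). Counts over the whole list follow for each list whose nearest genes are counted. Their difference from the nearest genes was not tested, and nothing particular to late regions is read from them. Cytochrome P450 and drug metabolism had 28 tested nearest genes, of which 23 were higher and 1 lower in day 6 than in YAP1on tumors (median log2 1.60), 14 higher and 5 lower in hbHep than in day 6 tumors, and 6 higher and 16 lower in hbHep than in FAH liver. Of the whole list, 76 of 107 were higher at day 6, 53 higher in hbHep than at day 6 and 51 lower than in FAH liver. Cyp2f2, a P450 of periportal cells, was 131, 64.6, 282 and 81.9 in YAP1on tumors, 474, 753, 272 and 463 in day 6 tumors, 820, 666 and 3349 in hbHep and 21240, 21380 and 25110 in FAH liver. FAH liver lay above every other sample (log2 −4.20 for hbHep, SE 0.56, adjusted p = 3.60e-05, limma), and hbHep overlapped day 6. Cyp2d9, a steroid hydroxylase more abundant in males, was 402 to 1316 in all tumors, 8928 to 15970 in hbHep, with 21290 to 26980 in FAH liver, and rose by log2 4.38 (SE 0.28, adjusted p = 1.30e-08, limma) from day 6 to hbHep. Cyp2a12 was 5205 to 10020 in hbHep, with 42000 to 61330 in FAH liver.

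Of 15 bile acid genes, 12 were higher at day 6 than with YAP1 on and the other 3 were not called, 5 higher and 2 lower in hbHep than at day 6, and 4 higher and 7 lower in hbHep than in FAH liver. Of the 37 list genes, 24 were higher at day 6, 15 higher in hbHep than at day 6 and 19 lower than in FAH liver. Abcb11, the bile salt export pump, was 5496, 6367, 8693 and 7766 in YAP1on tumors, 27060, 32890, 25810 and 27900 in day 6 tumors, 26810, 21300 and 25900 in hbHep and 32620, 24470 and 27240 in FAH liver. It rose by log2 2.02 (SE 0.17, adjusted p = 6.98e-07, limma) within 6 days, and hbHep and FAH liver overlapped (log2 −0.19, SE 0.20, adjusted p = 0.501, limma). Slco1a1, an organic anion uptake carrier, was 68.2 to 125, 206 to 332, 677 to 794 and 5696 to 12260 in the 4 groups, with no overlap. Cyp8b1, which sets the share of cholic acid, was 238 to 1001, 2943 to 4754, 832 to 2664 and 14740 to 18540. Slc27a2, a fatty acid transporter and coenzyme A ligase, was 4572 to 6230, 9270 to 13330, 8586 to 16740 and 24320 to 31320.

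Amino acid breakdown and the urea cycle had 25 tested genes, with 21 higher and 1 lower at day 6, 10 higher and 2 lower in hbHep than at day 6, and 1 higher and 19 lower in hbHep than in FAH liver (median log2 −0.91). Of the 72 list genes these were 63 and 2, 31 and 10, and 5 and 45. Kmo, a hydroxylase of the kynurenine path, was 1075 to 1399, 2607 to 3387, 2967 to 3217 and 6810 to 8714. Amdhd1, of histidine breakdown, was 609 to 942, 1254 to 1798, 928 to 2096 and 9562 to 12770. Agxt, which clears glyoxylate, was 652 to 914, 2602 to 4442, 1734 to 2474 and 5596 to 8266, and was lower in hbHep than at day 6 (log2 −0.82, SE 0.19, adjusted p = 0.00323, limma). Gldc, of the glycine cleavage system, was 489 to 935, 683 to 1228, 1111 to 3764 and 11290 to 15140. In all 4 genes FAH liver lay above every other sample.

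Sugar, lipid and cholesterol metabolism had 32, with 21 higher and 1 lower at day 6, 14 higher and 5 lower in hbHep than at day 6, and 6 higher and 9 lower in hbHep than in FAH liver, against 60 and 4, 37 and 16, and 30 and 32 of the 97 list genes. Sc5d, a desaturase late in cholesterol synthesis, was highest in day 6 tumors (18710 to 20060, against 3796 to 5651 in YAP1on tumors, 4224 to 12210 in hbHep, with 8152 to 9615 in FAH liver). Insig2, which restrains sterol synthesis, was 639 to 1013, 1605 to 1955, 913 to 1713 and 1131 to 1404. Srebf1 and Ppp1r3c were 3041 to 3977 and 1466 to 3223 in FAH liver and 969 to 1964 and 980 to 2896 in hbHep. Secreted plasma proteins had 32, with 17 higher and 1 lower at day 6, 6 higher and 11 lower in hbHep than at day 6, and 2 higher and 18 lower in hbHep than in FAH liver, against 63 and 3, 17 and 45, and 11 and 73 of the 122 list genes tested. Apoa5, which promotes clearance of triglycerides, was 1955 to 3525, 6028 to 9666, 6476 to 10070 and 15970 to 24700, while Igfbp1 was 8482 to 17500 in tumors, 7111 to 31460 in hbHep, with 804 to 1850 in FAH liver. Pros1, an anticoagulant cofactor, was 1013 to 1348 in hbHep, with 298 to 445 in FAH liver.

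Sex-biased and growth hormone genes had 27 tested nearest genes with most of the list's 576 regions in Mup and other clusters. At day 6, 22 were higher than in YAP1on tumors (median log2 2.16) and the other 5 were not called. In hbHep 8 were higher and 7 lower than at day 6, and 3 higher and 18 lower than in FAH liver (median log2 −1.87). Of the 69 list genes tested, 43 were higher at day 6, 22 higher and 23 lower in hbHep than at day 6, and 42 lower than in FAH liver. Hsd3b5, a hydroxysteroid dehydrogenase abundant in male liver, had a late region on its start. It was 0 to 0.748, 1.01 to 8.73, 1.98 to 14.6 and 135 to 668, and Mup15 was 0, 0 to 20.5, 0 to 1.98 and 74.9 to 432.

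Pericentral and periportal genes form the zonation lists. Of 14 tested beta-catenin and pericentral genes, 11 were higher in hbHep than in day 6 tumors (median log2 1.77) and the other 3 were not called, and 9 were higher and 1 lower than in FAH liver (median 3.14). Of the 42 list genes, 25 were higher in hbHep than at day 6 and 29 higher than in FAH liver. Cyp2a5, a coumarin hydroxylase, was 864 to 2790, 3901 to 8407, 106700 to 160400 and 78260 to 136600; it rose by log2 4.39 (SE 0.35, adjusted p = 1.58e-07, limma) from day 6 to hbHep and then overlapped FAH liver (log2 0.26, SE 0.37, adjusted p = 0.618, limma). Nr1i3, the nuclear receptor CAR that induces drug metabolism, was 290, 108, 271 and 213 in YAP1on tumors, 584, 842, 433 and 788 in day 6 tumors, 1705, 1779 and 2372 in hbHep and 8974, 5798 and 7423 in FAH liver. Its 4 groups did not overlap (log2 1.59 for hbHep over day 6, SE 0.30, adjusted p = 0.000559, limma), and its nearest late region, 51 bp wide on the start, was 9 bp from a day 14 interval. Tcf7l2, a partner of beta-catenin, was 432 to 683 in hbHep and 718 to 930 in day 6 tumors (adjusted p = 0.0863, limma). Of 12 periportal genes, 5 were higher and 6 lower in hbHep than at day 6, and all 12 lower than in FAH liver (median log2 −2.05), as were 27 of the 30 list genes. Alb was 54510 to 91500 in hbHep, with 170000 to 215500 in FAH liver, though this call ended with quantile normalization (adjusted p 0.0595).

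Of 17 hepatocyte transcription factors, 3 were higher at day 6 and the other 14 not called, 5 higher and 2 lower in hbHep than at day 6, and 1 higher and 5 lower in hbHep than in FAH liver. Of the 36 list genes tested these were 11 and 1, 10 and 7, and 3 and 14. Cebpb was 795 to 1330, 1165 to 1475, 1929 to 4556 and 6571 to 10700, and Klf15 2432 to 3460, 3387 to 4516, 3006 to 6263 and 6895 to 9285. Of the lists of the starting state, 10 of 51 YAP1 and Hippo genes (19.6%), 7 of 31 fetal genes (22.6%) and 6 of 47 cell cycle genes (12.8%) were nearest genes, where the share of all genes was 17.6%. Of 10 YAP1 targets and Hippo genes, 9 were lower at day 6 than with YAP1 on and 1 was not called. Of the 50 list genes tested, 28 were lower and 6 higher. Tgfb2, a growth factor, was 89.1 to 123, 30.9 to 56.7, 20 to 33.5 and 5.14 to 14.3, Ccn1, a matrix protein and classic target, 1106 to 1617, 570.1 to 728, 365 to 700 and 165 to 261, Amotl2 612 to 1159, 252 to 287, 279 to 421 and 472 to 518, and Ptpn21 1060 to 1724, 778 to 1158, 513 to 597 and 312 to 479. Of 6 cell cycle genes, 4 were lower at day 6, as were 40 of the 47 list genes, with 1 higher. Cdk1 was 396 to 682, 51.2 to 80.9, 133 to 238 and 52.0 to 73.2, and rose from day 6 to hbHep (log2 1.42, SE 0.23, adjusted p = 0.000174, limma). Of 7 fetal liver and hepatoblastoma genes, 5 were higher in hbHep than in FAH liver and the other 2 not called. Of the 24 list genes tested, 13 were higher and 0 lower. Hmga1, a chromatin protein of growing cells, was 339 to 424 in hbHep against 125 to 131 in FAH liver. Of 9 circadian genes, 1 was higher and 2 were lower in hbHep than at day 6, while of the 20 list genes 8 were higher and 4 lower.

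Markers of other liver cells were also among the nearest genes. These were 9 of 22 stellate cell and fibroblast markers (40.9%), 5 of 26 endothelial (19.2%), 2 of 23 cholangiocyte and progenitor, 1 of 21 macrophage, 1 of 20 lymphocyte and 0 of 10 neutrophil markers. Of all protein-coding genes with a start, 17.6% were nearest genes. A share like that of stellate markers was found in other lists. It was 48.6% for hepatocyte transcription factors, 45% for circadian, 40.5% for bile acid, 40% for periportal and 39.4% for sex-biased genes. The remaining metabolic, secreted and pericentral lists had 25.8% to 34.7%. Among the endothelial 5, 1 was lower in hbHep than at day 6 and the other 4 were not called. Over all 26 endothelial markers, 1 was higher and 5 lower. Of the stellate 9, 1 was higher and 2 lower (median log2 −0.04). Over all 22 stellate cell and fibroblast markers, 1 was higher and 9 lower (median −0.47). Lrat was 478 to 1408, 1483 to 2311, 519 to 1219 and 805 to 1713, and Hgf, the growth factor that stellate cells send to hepatocytes, 826 to 1757, 623 to 1058, 561 to 937 and 658 to 944.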

How the data were processed

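RNA values were deposited by the authors as a signal per gene and library (scaled reads per base), for which the submitters' processing notes name kallisto 0.45.0, sleuth and GRCm38.p6. ATAC intervals were deposited by the authors as lists on mm10, with Picard, SAMtools, BWA, cutadapt and bcl2fastq named per the submitters' processing notes. The interval caller is not given in the sources used here, nor is a shift of cut sites, and column 5 was not used. No score or depth was read from the lists, so the depth of the ATAC libraries is unknown; they held 571520 (liver) to 1023760 (day 14) intervals. RNA signal summed to 15.99 M to 42.12 M per library.

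For each hbHep mouse the mean of its 2 technical libraries was used, giving 14 samples. Median-of-ratios factors rescaled the values, and genes with at least 10 in at least 3 samples were tested (17953 of 36555) with limma 3.58.1 (lmFit, eBayes with trend) in R 4.3.3 on log2(abundance + 1), in 1 model of the 4 groups without covariates. The threshold was an adjusted p of 0.05. Fold changes on this scale understate changes of low genes. The procedure was tested on simulated data. Tumors of a group are samples of 1 mouse, so their spread does not cover differences between mice and may be technical. The model shares 1 estimate of the spread of each gene among the 4 groups. That estimate mixes the spread between tumors of 1 mouse with the spread between hbHep mice and between FAH liver mice. The p-values of every comparison rest on this mixture.

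Overlaps were computed in Python 3.11.15 with numpy 2.4.6, and bedtools 2.31.1 gave the same number of late regions. Gene starts and promoter windows came from RefSeq tables of GRCm38.p6, which gave a start for 79.9% of protein-coding genes, none of them on chromosome 18, where 220 regions lie. No genome was given, so motifs were searched in promoter windows in place of the planned 200 bp around each region. Named regions were the 10 widest. Named genes were the 5 with most regions, the 12 largest rises and 8 largest falls in hbHep against day 6 tumors (region within 10 kb, called, no overlap of samples), and up to 4 genes per list with a region nearest to the start; others are said to be picked later. Members and lists were chosen with earlier results of these data known. Replicate numbers did not pair samples (correlations −0.23 to 0.187).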

Additional observations from a re-analysis of the deposited data

Results flagged for a closer look

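Of 152 pairs of a named gene and a tumor group, 12 had 1 of 4 samples far from the others by Dixon's criterion, which chance gives in about 1 of 20. With YAP1 on, tumor 2 stood apart for Apln (85.12, others 18.8 to 27.2), Susd4 (2.551, others 4.07 to 4.29) and Hsd3b5 (0.0, others 0.627 to 0.748). Tumor 3 did so for Slco1a1 (124.5, others 68.2 to 70.9) and Mup17 (0.9925, others at 0), and tumor 1 for Klf15 (2432, others 3288 to 3460) and Srebf1 (673.5, others 1016 to 1059). Among day 6 tumors, tumor 2 was high for Hlf (695.6, others 537 to 562), Hmga1 (533.7, others 453 to 463) and Ngfr (364.5, others 181 to 209). Tumor 3 was high for Serpina1e (15870, others 4505 to 6090) and low for Slco1a1 (206, others 315 to 332).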

How the results depend on the processing

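No log2 difference of a named gene that was called changed sign under the alternative fits run. Alternatives added after seeing the data changed the regions or genes counted and were not run on named genes. One of these left out the regions in dense stretches. There, genes with 10 or more regions were higher in hbHep than in day 6 tumors in 18.8% and lower in 21.9% (30.3% and 14.6% with those regions). Against FAH liver they were higher in 21.9% and lower in 18.8% (13.5% and 44.9% with those regions), so both balances turned. The number of regions was 5757 when 50% of each had to be covered at days 33 and 64, 4384 with no day 14 interval within 200 bp, 1388 at 100 bp or wider and 40 at 200 bp or wider, and it was 11797 when only intervals of 50 bp or wider counted in the other lists. The share overlapping the YAP1on list was 7.05% with no day 14 interval within 200 bp and 18.9% when only intervals of 50 bp or wider counted. Regions near a start were 3.53% with no day 14 interval within 200 bp, 15.0% at 200 bp or wider and 10.5% within 2.5 kb. At 200 bp or wider, 28 genes remained tested, with 10.7% lower in hbHep than at day 6, 32.1% higher and 3.57% lower at day 6 than with YAP1 on, 53.6% higher and 10.7% lower in hbHep than with YAP1 on, and 10.7% higher and 53.6% lower in hbHep than in FAH liver. The cause was not tested; the smaller sets follow from the stricter rules.

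Leaving out 1 sample gave ranges of 23.9 to 28.1% higher and 17.4 to 21.1% lower for hbHep against day 6, 15.9 to 21.4% and 8.02 to 11.3% for day 6 against YAP1on, 30.8 to 35.4% and 20 to 24.1% for hbHep against YAP1on, and 17.9 to 21.7% and 16.9 to 22.7% for hbHep against FAH liver. With the replicate number as a block, 24.7% were higher and 17.8% lower in hbHep than at day 6, 17.6% higher and 9.07% lower at day 6 than with YAP1 on, and 20.3% higher and 20.5% lower in hbHep than in FAH liver. The numbers did not pair the samples. Of 188 calls on named genes, 43 were lost under at least 1 alternative, among them hbHep against day 6 for Cyp2f2, Cyp2a12, Cyp8b1, Gldc, Insig2, Lrat, Tgfb2 and Mup11.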

Other observations

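Several genes in dense stretches of late regions lie outside the lists. Enpp2, which makes lysophosphatidic acid, was 127 to 364 with YAP1 on, 225 to 562 at day 6, 2908 to 3858 in hbHep, with 6601 to 8176 in FAH liver, with hbHep above day 6 by log2 3.29 (SE 0.31, adjusted p = 9.07e-07, limma). Tmem28 was at most 1.45 in any tumor, 16.7 to 62.6 in hbHep, with 16.3 to 17.3 in FAH liver. Cmah, which makes the sialic acid Neu5Gc, was 199 to 276, 376 to 688, 597 to 1316 and 2574 to 3035. Saa4, a serum amyloid of lipoproteins, was 404 to 518, 1429 to 2103, 1249 to 3112 and 6963 to 8573, while its neighbor Saa3 was 38.1 to 141 over all 14 samples. Slc8a1, a sodium and calcium exchanger, was lower in FAH liver (67.6 to 86.8) than in hbHep (198 to 455). Dkk4, a Wnt inhibitor, was 5.6 to 10 in tumors and hbHep and 10.6 to 40.4 in FAH liver.

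The hbHep mice were not alike in these genes. Mouse 2 had 231 of Sult2a8 against 827 and 981, 1577 of Nudt7 against 9682 and 6521, 15.7 of Mup10 against 471 and 1303, and 2464 of Fabp1, the fatty acid carrier of the liver, against 26940 and 39550. The same mouse had the most Plin4 (869 against 291 and 343). Day 6 tumors had 9922 to 17960 of Fabp1 and FAH liver 68890 to 92200.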
